A study of Mus musculus with 10 samples.

Results

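Tenomodulin (TNMD), its relative chondromodulin (CNMD) and the tendon-lineage transcription factors scleraxis (SCX) and Mohawk (MKX) were followed in grafts of a human brain tumour line. They are 4 of the 33538 Ensembl identifiers in the deposited count table, namely ENSG00000000005 (TNMD), ENSG00000136110 (CNMD), ENSG00000260428 (SCX) and ENSG00000150051 (MKX). The count table gives identifiers only, and the symbols are those of the list that defined the set. TNMD was put on the list because it was well expressed and higher with the oils, fish oil most, in these same libraries. Its levels by diet are therefore given as a description with no test. CNMD, SCX and MKX were listed as its kin and lineage genes, with earlier results of these data known.

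DAOY, a long-used cell line from a human medulloblastoma, was grafted on the flank of female nude mice, which are immunodeficient and accept human cells. Mice received fish oil (n = 4 libraries), DHA oil (n = 3) or, as control, ordinary chow (n = 3), and each library was labelled with 30 days of treatment. The fish oil arm was read as the one that combined docosahexaenoic acid (DHA) with eicosapentaenoic acid, both long-chain omega-3 fatty acids. All 3 groups carried the same line. The labels do not tie a library to a mouse, so a p-value here speaks only of spread among samples, which may be technical, and no batch is given.

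TNMD and CNMD are related membrane glycoproteins whose C-terminal domains are known to restrain blood vessel growth. TNMD marks mature tendon and ligament cells, while CNMD is made mainly by cartilage. SCX is a basic helix-loop-helix factor of tendon progenitors, and in mouse it acts upstream of Tnmd. MKX is a homeobox factor that, in mouse, is needed for full growth of tendon collagen fibrils. None of the 4 is a textbook marker of medulloblastoma.

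Total counts per library ranged from 6187116 to 10035702. Levels are given as CPM, reads relative to a library total scaled by the trimmed mean of M values (TMM), and log2 CPM adds a prior count of 2. CPM does not correct for transcript length, so levels are compared between libraries and not between genes. On the first principal component of all genes past the filter on low counts, fish oil replicate 4 (-52.9) and fish oil replicate 2 (-21.4) stood apart, the other libraries scoring from -1.71 to 19.1. These 2 libraries were not close to each other. By chi-square of counts per gene, fish oil replicate 2 was farther from replicate 4 (30.5) than from replicates 1 and 3 (15.9 and 11.3). The value for control replicates 1 and 2 was 12.1. A check for a single outlying library within fish oil flagged 0 of 9 measures, the first principal component among them. Fold changes, spreads and correlations that involve fish oil are also given without fish oil replicates 2 and 4. Markers of tendon, cartilage, muscle, fat, vessel or host cells, and of DAOY itself, could not be read, because 0 of the 33538 identifiers could be matched to a name in the mouse tables at hand. Their part in the results was not tested.

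All 4 genes passed the filter on low counts and were read in every library. The lowest count of any of them was 79 reads, for TNMD in control replicate 1, and the highest was 819 reads, for CNMD in fish oil replicate 4. TNMD had the widest range, its highest library standing 4.20 times above its lowest. The same ratio was 3.15 for SCX, 2.44 for CNMD and 2.16 for MKX.

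Libraries of one diet differed in these genes more than in most genes. The pooled SD within diets on the log2 CPM scale was 0.52 for TNMD, 0.50 for SCX, 0.49 for CNMD and 0.34 for MKX, against a median of 0.24 over all 16013 genes tested. Of those genes, 91.3% had a smaller SD than TNMD, 89.9% a smaller one than SCX, 89.5% a smaller one than CNMD and 73.5% a smaller one than MKX. Without fish oil replicates 2 and 4 the SD was 0.38 for TNMD, 0.36 for SCX, 0.44 for CNMD and 0.16 for MKX, against a median of 0.19, so that MKX then lay below the median gene.

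TNMD, the tendon cell marker, averaged 24.8 ± 10.5 CPM with fish oil (SD, n = 4) and 19.1 ± 4.57 CPM with DHA oil (SD, n = 3), against 12.8 ± 3.94 CPM in the control libraries (SD, n = 3). Its fish oil libraries 1 to 4 stood at 14.9, 32.4, 16.7 and 35.2 CPM. Its DHA oil libraries stood at 14.7, 19.0 and 23.8 CPM, and its control libraries at 8.38, 13.9 and 16.0 CPM. Fish oil thus fell into a high pair, replicates 2 and 4, and a low pair, replicates 1 and 3. The high pair lay above every other library. The low pair lay near DHA oil replicate 1 and control replicate 3, and fish oil replicate 1 was inside the control range. The 95% Poisson interval of fish oil replicate 1, 12.02 to 18.2 CPM, held the values of DHA oil replicate 1 and of control replicates 2 and 3. It covers counting error only. In bulk libraries a lower level from fewer cells that make the transcript and one from less RNA per cell cannot be told apart. Mouse reads that align to human genes could be among the counts, and their part was not tested.

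**Figure D1:**
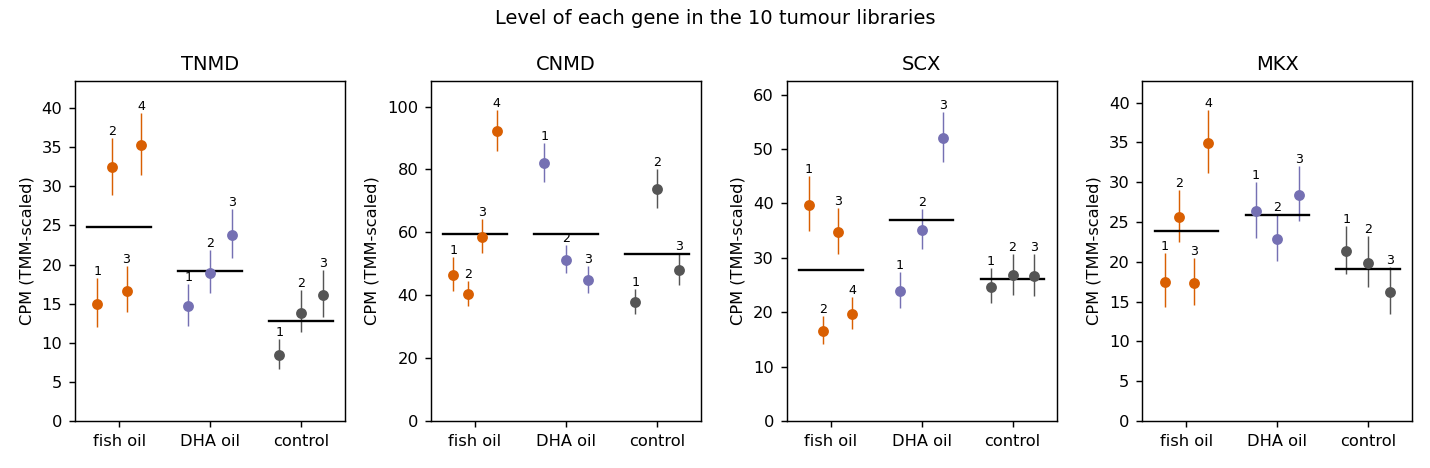
CPM (TMM-scaled, vertical axes from 0) of TNMD, CNMD, SCX and MKX in each library, grouped by diet; the number beside a point is its replicate, thin bars are 95% Poisson intervals of the count and horizontal lines are group means. In fish oil, replicates 2 and 4 are the highest TNMD libraries (32.4 and 35.2 CPM) and the lowest SCX libraries (16.5 and 19.7 CPM).

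The order of the diet means for TNMD was fish oil, DHA oil and control. All 3 diets overlapped, with 1 of 4 fish oil libraries and 1 of 3 DHA oil libraries inside the control range. The log2 fold change of TNMD was 0.98 for fish oil against control, 0.60 for DHA oil against control, and 0.38 between fish oil and DHA oil. For both oils together against control it was 0.79. No SE is attached, since it would restate a test of values that chose the gene. These values come from edgeR's quasi-likelihood fit of all 10 libraries, and the median over all genes tested was between 0.00 and 0.01 in each comparison. As large a rise or a larger one was seen in 54 of 16013 genes (0.337%) for fish oil against control and in 310 (1.94%) for DHA oil against control, which describes TNMD and tests nothing, since TNMD was chosen for this rise.

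Fish oil replicates 2 and 4 stood apart on the first principal component, but scored 29.1 and -9.01 on the second. They were also the 2 highest TNMD libraries, so leaving them out had to lower the fish oil value. Without them the log2 fold change of TNMD was 0.32 for fish oil against control but -0.28 between fish oil and DHA oil, so that DHA oil then had the higher level. For both oils against control it was 0.46. Leaving out any single library kept the log2 fold change between 0.74 and 1.17 for fish oil against control, and between 0.17 and 0.57 for fish oil against DHA oil. DHA oil against control stayed between 0.36 and 0.79.

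CNMD, the cartilage relative of TNMD, had nearly equal means with the 2 oils, somewhat above the control mean, and all 3 diets overlapped. It averaged 59.4 ± 23.2 CPM with fish oil (SD, n = 4) and 59.4 ± 19.9 CPM with DHA oil (SD, n = 3), against 53.2 ± 18.6 CPM in the control libraries (SD, n = 3). Its fish oil libraries 1 to 4 stood at 46.4, 40.4, 58.6 and 92.2 CPM. Its DHA oil libraries stood at 82.1, 51.3 and 44.8 CPM, and its control libraries at 37.8, 73.8 and 48.1 CPM. Each diet held 1 library well above the rest, namely fish oil replicate 4, DHA oil replicate 1 and control replicate 2. These were also the libraries with the lowest score of their diet on the first principal component (-52.9, 2.97 and -1.71). Fish oil replicate 2, also low on that component (-21.4), had a low CNMD level (40.4 CPM). Over the 10 libraries, Pearson r of log2 CPM with that component was -0.54 for CNMD, 0.68 for SCX and -0.71 for MKX. The log2 fold change of CNMD was 0.16 (95% interval -0.45 to 0.77) for fish oil against control, 0.16 (-0.49 to 0.81) for DHA oil against control and 0.0048 (-0.60 to 0.61) for fish oil against DHA oil. The adjusted p (edgeR's quasi-likelihood test, Benjamini-Hochberg) was 1.00 in each of these comparisons, which does not show that the levels were alike. For both oils against control CNMD was 0.16 (-0.40 to 0.72; edgeR adjusted p = 1.00). Without fish oil replicates 2 and 4 it was -0.012 for fish oil against control, -0.17 between fish oil and DHA oil and 0.07 for both oils against control.

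TNMD and CNMD shared their highest library, fish oil replicate 4, and their lowest, control replicate 1, but not their other high libraries. TNMD had 32.1, 80.3, 28.4 and 38.2 reads per 100 reads of CNMD in fish oil replicates 1 to 4. The same ratio was 17.9, 37.0 and 53.2 in DHA oil and 22.2, 18.8 and 33.3 in control. It does not depend on the scaling of the libraries. Fish oil replicate 2 had the highest ratio and DHA oil replicate 1 the lowest. Fish oil replicates 1 and 3 lay inside the control range.

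SCX, the tendon progenitor factor, averaged 27.7 ± 11.3 CPM with fish oil (SD, n = 4) and 37.0 ± 14.2 CPM with DHA oil (SD, n = 3), against 26.1 ± 1.17 CPM in the control libraries (SD, n = 3). Its fish oil libraries 1 to 4 stood at 39.7, 16.5, 34.8 and 19.7 CPM. Its DHA oil libraries stood at 23.9, 35.1 and 52.0 CPM, and its control libraries at 24.7, 26.8 and 26.7 CPM. No oil library lay inside the narrow control range, which was so for 1117 of 16013 genes (6.98%). In fish oil 2 libraries were above it and 2 below, and in DHA oil 2 were above it and 1 below. The pair of fish oil libraries with the least SCX was the pair with the most TNMD. In mouse the Scx gene overlaps Bop1, by the RefSeq annotation of GRCm38.p6. Whether reads of a neighbour entered the human SCX count cannot be told, because the strand setting of the counting is not given in the sources used here.

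The log2 fold change of SCX was 0.51 (95% interval -0.14 to 1.16) for DHA oil against control, with an adjusted p of 1.00 in edgeR's quasi-likelihood test. It was 0.07 (-0.54 to 0.69) for fish oil against control (edgeR adjusted p = 1.00) and -0.43 (-1.04 to 0.17) for fish oil against DHA oil (edgeR adjusted p = 0.875). Without fish oil replicates 2 and 4 the fish oil value was 0.51 against control and 0.0041 against DHA oil. The pair held the lowest SCX levels, so leaving it out had to raise these values. For both oils against control SCX was 0.29 (-0.27 to 0.85; edgeR adjusted p = 1.00), and 0.51 without the pair. Leaving out single libraries moved SCX between 0.18 and 0.74 for DHA oil against control and between -0.67 and -0.11 between the oils.

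MKX, the homeobox factor, averaged 23.8 ± 8.34 CPM with fish oil (SD, n = 4) and 25.9 ± 2.81 CPM with DHA oil (SD, n = 3), against 19.1 ± 2.65 CPM in the control libraries (SD, n = 3). Its fish oil libraries 1 to 4 stood at 17.5, 25.6, 17.3 and 34.9 CPM. Its DHA oil libraries stood at 26.4, 22.9 and 28.4 CPM, and its control libraries at 21.3, 19.9 and 16.2 CPM. All 3 DHA oil libraries were above all 3 control libraries, which was also the case for 746 of 16013 genes (4.66%). In fish oil, replicates 2 and 4 were above the control range and replicates 1 and 3 inside it. Replicates 2 and 4 were also the high pair for TNMD, but TNMD in replicate 3 lay just above its control range.

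The log2 fold change of MKX was 0.43 (95% interval -0.07 to 0.94) for DHA oil against control, which was not called (unadjusted p = 0.0865 and adjusted p = 1.00 in edgeR). It was 0.32 (-0.15 to 0.80) for fish oil against control (edgeR adjusted p = 1.00) and -0.11 (-0.58 to 0.35) for fish oil against DHA oil (edgeR adjusted p = 0.935). Without fish oil replicates 2 and 4 the fish oil value was -0.14 against control and -0.57 against DHA oil. The pair held the highest MKX levels in fish oil, so leaving it out had to lower these values. For both oils against control MKX was 0.38 (-0.06 to 0.81; edgeR adjusted p = 1.00), and 0.15 without the pair. Leaving out single libraries moved MKX between 0.08 and 0.45 for fish oil against control.

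**Figure D2:**
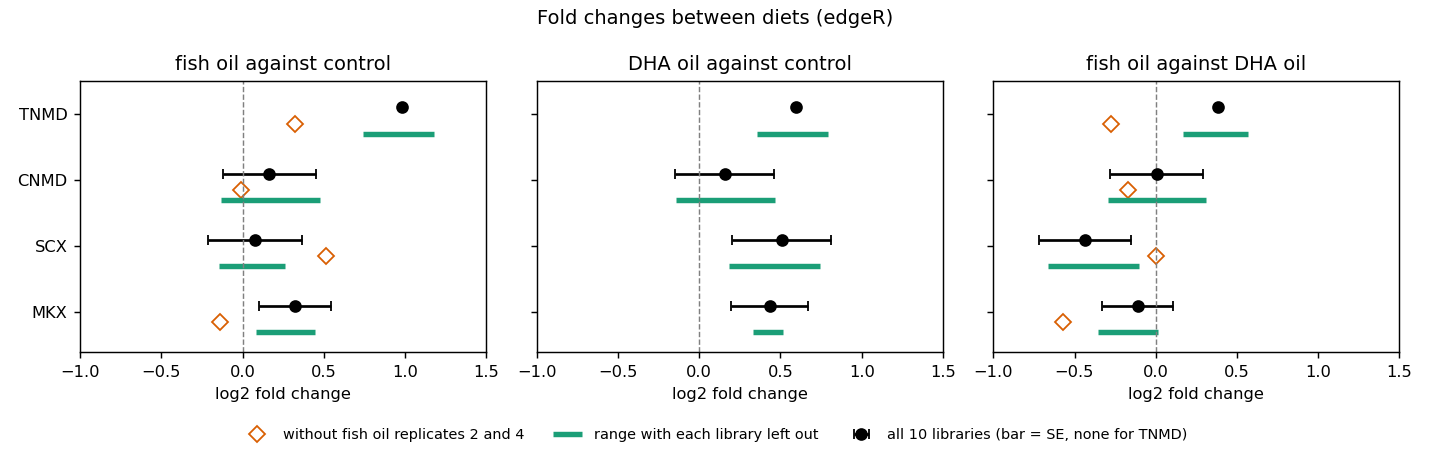
Log2 fold change (horizontal axes) of each gene in 3 comparisons; black points are the edgeR values from all 10 libraries with their SE as bars (none for TNMD, whose values are a description), green bars span the values with each single library left out, and open diamonds are the values without fish oil replicates 2 and 4. The diamond of TNMD lies at 0.32 in the left panel and at -0.28 in the right panel, where the values from all libraries are 0.98 and 0.38.

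Of the 3 genes tested (CNMD, SCX and MKX), 0 were called in any comparison at an adjusted p of 0.05, and 0 had an unadjusted p under 0.05. Among all 16013 genes, edgeR called 1 for fish oil against control (0.00624%), 0 for DHA oil against control (0%), 0 for fish oil against DHA oil (0%) and 21 for both oils against control (0.131%). Of the genes called, 0 were higher and 1 lower for fish oil against control, and 0 were higher and 21 lower for both oils against control. Genes with an unadjusted p under 0.05 numbered 558 (3.48%) for fish oil against control, 438 (2.74%) for DHA oil against control, 775 (4.84%) for fish oil against DHA oil and 419 (2.62%) for both oils against control. In the same order of comparisons DESeq2 called 20, 11, 1 and 27 genes, and limma-voom with sample quality weights called 0, 3, 0 and 1. Fish oil and DHA oil were compared with the same control libraries. Over all alternatives tried, the lowest adjusted p of any of the 3 genes was 0.423, for SCX in fish oil against DHA oil without fish oil replicate 1.

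Whether the 4 genes varied together from library to library was examined in 6 pairs, on the log2 CPM scale. The diet levels of TNMD were used to choose it, so the tests are on deviations from the diet means, by exact permutation within diets (864 arrangements), two-sided and adjusted over the 6 pairs. MKX was nearest to TNMD, with Pearson r = 0.59 (exact permutation p = 0.238, adjusted p = 0.542) and Spearman rho = 0.50 (exact permutation p = 0.288, adjusted p = 0.676) on deviations. On levels, given as a description, r was 0.62 and rho 0.49, and r was 0.27 without fish oil replicates 2 and 4, the libraries farthest from the median of TNMD. CNMD and TNMD had r = 0.18 (exact permutation p = 0.674, adjusted p = 0.674) and rho = 0.19 (exact permutation p = 0.692, adjusted p = 0.996) on deviations. On levels r was 0.23 and rho 0.10, and r was 0.14 without that pair.

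SCX and TNMD had r = -0.37 (exact permutation p = 0.344, adjusted p = 0.542) and rho = -0.43 (exact permutation p = 0.338, adjusted p = 0.676) on deviations. On levels r was -0.23 and rho -0.12, and r was 0.73 over the 8 libraries other than fish oil replicates 2 and 4. The sign thus differed with and without that pair. In reads, SCX had 266.7, 51.0, 208.6 and 55.9 reads per 100 reads of TNMD in fish oil replicates 1 to 4. The same ratio was 162.9, 185.1 and 218.6 in DHA oil and 294.9, 193.4 and 166.4 in control. The libraries other than the fish oil pair all lay above 160 reads.

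Of the pairs without TNMD, SCX and MKX had r = -0.58 (exact permutation p = 0.235, adjusted p = 0.542) and rho = -0.58 (exact permutation p = 0.233, adjusted p = 0.676) on deviations. On levels their r was -0.28 (permutation p = 0.430, adjusted p = 0.526) and rho -0.28 (permutation p = 0.430, adjusted p = 0.785). It was -0.69 without fish oil replicate 2 and DHA oil replicate 3, the libraries farthest from the median of SCX, and 0.22 without fish oil replicates 2 and 4. CNMD and MKX had r = 0.35 (exact permutation p = 0.451, adjusted p = 0.542) and rho = -0.10 (exact permutation p = 0.830, adjusted p = 0.996) on deviations. On levels their r was 0.37 (permutation p = 0.281, adjusted p = 0.526) and rho 0.18 (permutation p = 0.629, adjusted p = 0.785). It was -0.36 without fish oil replicate 4 and DHA oil replicate 1, the libraries farthest from the median of CNMD, and 0.14 without fish oil replicates 2 and 4.

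CNMD and SCX had r = -0.32 (exact permutation p = 0.444, adjusted p = 0.542) and rho = -0.0061 (exact permutation p = 1.00, adjusted p = 1.00) on deviations. On levels their r was -0.24 (permutation p = 0.494, adjusted p = 0.526) and rho -0.16 (permutation p = 0.657, adjusted p = 0.785). It was 0.17 without fish oil replicate 4 and DHA oil replicate 1, and -0.38 without fish oil replicates 2 and 4. No pair passed the adjustment.

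**Figure D3:**
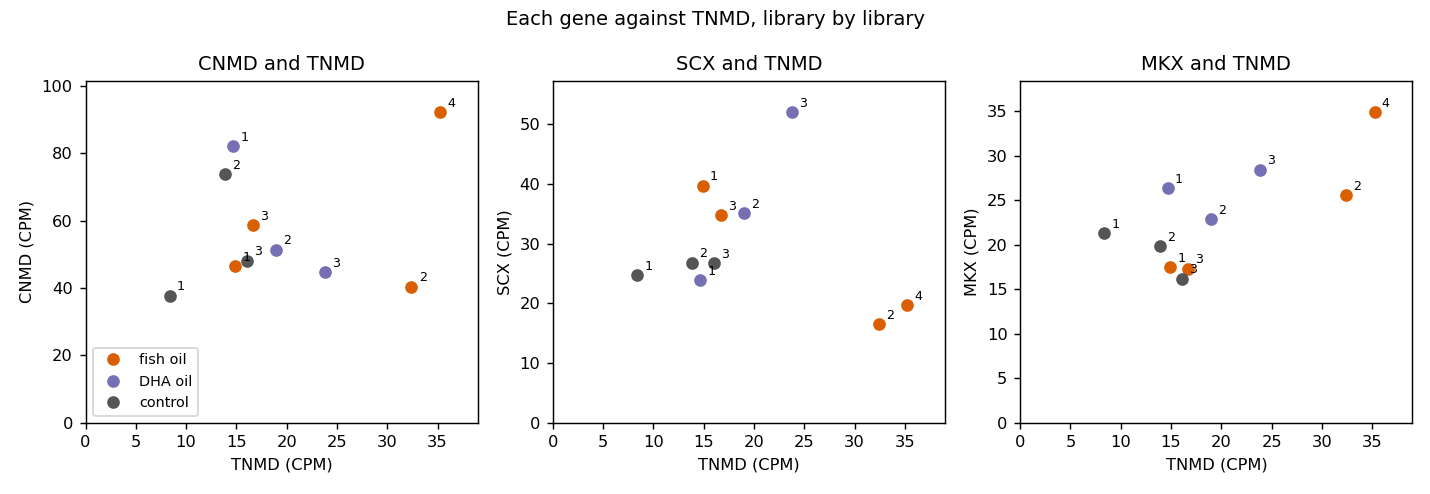
CNMD, SCX and MKX (vertical axes, CPM from 0) against TNMD (horizontal axes, CPM from 0), 1 point per library coloured by diet and numbered by replicate. Fish oil replicates 2 and 4 lie to the right of all other libraries, low for SCX (16.5 and 19.7 CPM), above the control range for MKX (25.6 and 34.9 CPM) and apart from each other for CNMD (40.4 and 92.2 CPM).

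Set among the other genes, the lineage factors were not those most like TNMD. Pearson's r with TNMD over the 10 libraries was computed for the 14466 other genes whose log2 CPM averaged 1 or more, as a description. Its median was 0.02, 4 genes reached 0.9 or more and 6 reached -0.9 or less. MKX had a higher r than 93.8% of them and was exceeded by 902, whereas CNMD was exceeded by 5067 and SCX by 9656. The points share library, depth and the split within fish oil.

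The gene most like TNMD was ENSG00000079335, with r = 0.95 over the 10 libraries, 0.91 on deviations from the diet means and 0.89 without fish oil replicates 2 and 4. Its range was narrower, at 10.1, 13.1, 10.3 and 12.4 CPM in fish oil, 10.4, 10.7 and 10.7 CPM in DHA oil and 8.70, 9.15 and 9.96 CPM in control. The next was ENSG00000170509, with r = 0.93, 0.92 and 0.88 by the same measures. Its log2 CPM averaged 1.09, just above the limit of 1 for this comparison, so counting error weighs heavily on its values. It stood at 1.60, 3.41, 1.82 and 2.93 CPM in fish oil, 1.66, 1.66 and 2.32 CPM in DHA oil and 0.849, 1.44 and 2.35 CPM in control. In both, fish oil replicates 2 and 4 were the highest libraries and control replicate 1 the lowest, as for TNMD. Both were picked for their likeness to TNMD over these same libraries, so this only describes them. The tables at hand give these identifiers no name.

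**Figure D4:**
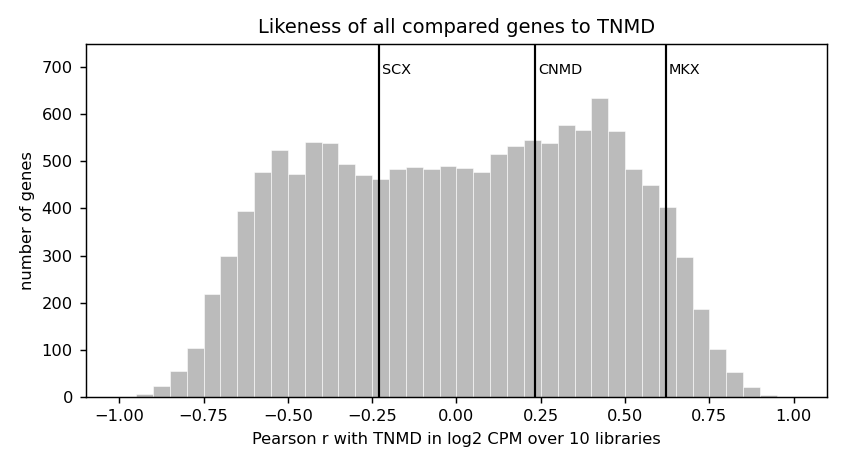
Number of genes (vertical axis) by Pearson r with TNMD in log2 CPM over the 10 libraries (horizontal axis, bins of 0.05), for the 14466 genes compared; black lines mark SCX (-0.23), CNMD (0.23) and MKX (0.62). MKX lies above 93.8% of the genes compared, with 902 to its right, while CNMD lies above 65.0% and SCX above 33.2%.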

How the data were processed

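Raw counts per human Ensembl gene were deposited for 10 libraries of DAOY tumours, with no normalisation visible in the values. Per the submitters' processing notes, STAR aligned the reads to GRCh38 and HTSeq 0.9.0 did the counting. Libraries were stranded poly(A) mRNA, per the labels' protocols. Annotation release, strand setting, treatment of shared reads and removal of mouse reads: not given in the sources used here. Totals ran from 6187116 to 10035702 reads.

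Genes with few reads were dropped with filterByExpr at a minimum count of 10, and 16013 were left. The test was edgeR 4.0.16 (R 4.3.3), TMM scaling and a quasi-likelihood F test, with all 10 libraries in 1 fit and diet as its factor. Values of p were adjusted by Benjamini-Hochberg over all genes tested, with a threshold of 0.05. SE is the log2 fold change over the root of F, sign removed, and 95% intervals use the test's total degrees of freedom (median 14.7). The fit was also run on simulated counts, which lacked the split within fish oil, so that run does not speak to its behaviour on these libraries. Pair correlations of levels used 100000 permutations, and those of deviations from diet means all 864 permutations within diets. The within-diet tests were chosen for pairs with TNMD after the data were seen.

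The members and lists were chosen with earlier results of these data known. The 10 marker and pathway lists (197 symbols) had 0 symbols matched and gave no result. The genes described are the 4 members and those with the highest r with TNMD, capped at 2 identifiers for want of names. Alternatives were other scalings and filters, DESeq2 1.42.0, limma-voom with sample quality weights (limma 3.58.1), a fit limited to the compared groups, a replicate block and each library left out. Leaving out fish oil replicates 2 and 4 together was added after the data were seen. No sequences are shown, because the reference tables used here are of mouse.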

Additional observations from a re-analysis of the deposited data

How the results depend on the processing

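In 71 values from other scalings, filters and tests, a fit limited to the compared groups, the replicate block and single libraries left out, the log2 fold change of TNMD moved by less than its SD within diets (0.52), which exceeds its value between the oils (0.38). That value was 0.13 with the replicate block and 0.14 in limma-voom with sample quality weights. CNMD, SCX and MKX were called under none of the alternatives. Without fish oil replicates 2 and 4, fish oil against control was 0.32 for TNMD, -0.012 for CNMD and -0.14 for MKX. Fish oil against DHA oil was then -0.28 for TNMD, -0.17 for CNMD and 0.0041 for SCX, and r was 0.73 for TNMD with SCX and 0.22 for SCX with MKX. The CNMD value for fish oil against DHA oil, 0.0048 in the fit reported, was -0.0028 with total counts alone, -0.00015 with no filter, -0.0021 with a strict filter, -0.00062 in DESeq2 and -0.093 in limma-voom with those weights. The cause was not tested.

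With the replicate number as a block, in which fish oil replicate 4 is alone, CNMD with fish oil was -0.12 against control and -0.28 against DHA oil. The block left 0 genes called for fish oil against control, 1 for DHA oil against control and 12 for both oils. The numbers are not known to pair the samples, since deviations correlated above 0.1 in 1 of 9 same-number pairs (-0.17 to 0.18).

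Leaving out 1 library gave -0.13 to 0.47 for CNMD in fish oil against control, -0.15 to 0.47 in DHA oil against control, -0.29 to 0.31 between the oils and -0.044 to 0.47 for both oils. SCX in fish oil against control ran from -0.15 to 0.26, and MKX between the oils from -0.35 to 0.014. The r of TNMD ran from -0.14 to 0.50 with CNMD and from -0.49 to 0.060 with SCX, and that of CNMD with MKX from 0.0020 to 0.50. Counts of called genes ran from 0 to 22 for fish oil against control, 0 to 5 for DHA oil against control, 0 to 1 between the oils and 3 to 35 for both oils.

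For fish oil against control the count of called genes was 0 with total counts alone, 56 with no filter, 0 with a strict filter, 20 in DESeq2, 0 in weighted limma-voom, 7 with only these groups and 0 without fish oil replicates 2 and 4. For DHA oil against control it was 57 with no filter, 11 in DESeq2 and 3 in weighted limma-voom. Between the oils it was 14 with no filter and 1 in DESeq2. For both oils it was 76 with no filter, 1 in weighted limma-voom and 0 without fish oil replicates 2 and 4. With 79 reads in the least-read TNMD library, counting error limits comparisons of single libraries.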
